A study of Saccharomyces cerevisiae with 4 samples.

Results

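Transcripts of 30 genes that mark mitosis and the entry into G1 were followed in the budding yeast Saccharomyces cerevisiae under salt. The members were chosen by name, with earlier results of these data known. The probe of each was found by its systematic name among 6388 gene probes, so all 30 are represented. They comprise 8 G2/M genes and 22 M/G1 genes. The M/G1 genes were further divided into 13 genes of daughter-cell separation and identity and 9 genes of origin licensing and Start, the commitment to a new cycle. The strain BF2B had the genotype bdf1∆bdf2∆[BDF2 L][pYX242], and the strain BF2S had bdf1∆bdf2∆[BDF2 L][SIR2 H]. Both were set against BF2, which was bdf1∆[pYX242][pRS316]. BDF1 was thus deleted in all 3 strains, and the labels do not state what L and H stand for. BF2 kept its own BDF2 and carried pRS316, which the labels list for neither BF2B nor BF2S, so the comparisons differ in a plasmid as well as in the source of BDF2. Every culture had been held in 0.6 mol/L NaCl for 45 min.

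In budding yeast, the passage through mitosis is accompanied by successive waves of transcription. The forkhead proteins, Mcm1 and Ndd1 drive the G2/M wave, which includes the mitotic cyclins and the transcription factor gene SWI5. Its product enters the nucleus at the end of mitosis and switches on M/G1 genes, and daughter cells secrete enzymes that dissolve the septum. A separate group of M/G1 genes, controlled by Mcm1 through early cell cycle boxes, encodes the MCM helicase, its loader Cdc6 and the G1 cyclin Cln3. Hyperosmotic salt is known to delay the cycle at several points through the kinase Hog1.

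Each of BF2B and BF2S was hybridised with BF2 on 2 slides, the second with the dyes exchanged. Slide 1 carried the strain in Cy5 and slide 2 in Cy3. The labels describe the second slide as the dye reversal of the first, so a pair of slides was taken as 1 biological replicate. The labels do not state whether both slides used the same RNA extract, and this was assumed. Under that assumption the spread between cultures is unknown, no p-value could be had, and each SD below is the spread of 2 hybridisations. Cultures with fewer cells in a cycle phase and cells with less of a transcript cannot be told apart in such bulk RNA. The study's own criterion, a difference over 2-fold that both arrays share, was applied to genes above local background in at least 1 channel of each slide, and genes that met it are named as called. BDF2 stood at a log2 ratio of 1.61 ± 0.03 in BF2B over BF2, and the deleted BDF1 was not above background there. On the BF2B slides the median gene signal was 463.75 to 667 brightness units above local background, against 29 to 110 units for blank spots. Sensitivity depended on the dye, with 77.2% and 75.1% of gene probes above background in Cy5 and 42.7% and 44.9% in Cy3. A negative flag was set for 54.6% of gene spots on BF2B slide 1 and for 0% on slide 2. The BF2S slides are described after the BF2B results because their blank spots were brighter than most genes.

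None of the 30 members, of which 26 were above background, was called in BF2B, with 0 higher and 0 lower. Of all 4660 genes above background 1.37% were called higher and 1.61% were called lower. Below that threshold the members still lay to the higher side. On both slides 20 of 30 members were above 0, against 28.3% of all gene probes, and 1 of 30 was below 0, against 27.8%. The median log2 ratio of the 30 members was 0.31, and that of all gene probes was close to 0, with quartiles of -0.19 and 0.21. The M/G1 licensing and Start genes stood highest with a median of 0.54, followed by the G2/M genes with 0.28 and the daughter separation genes with 0.14. G2/M and M/G1 genes as wholes did not part, since their medians were 0.28 and 0.32. This difference of -0.04 turned to 0.17 when only the members above background in all 4 channels were kept. Those were SWI5, CDC5 and CDC20 of G2/M, CLN3, MCM4 and MCM6 of licensing and Start, and the daughter separation genes except PCL9. The make-up of both sides thus differed from that of the full groups. The order of the 3 groups was 0.70, 0.41 and 0.14 on slide 1, but on slide 2 the daughter separation genes, at 0.18, lay above the G2/M genes, at 0.10, and the licensing and Start genes stood at 0.35. With the threshold lowered to 1.5-fold, 2 of the 26 members above background, CLN3 and FAR1, were past it in the higher direction and 0 in the lower. The shares of all genes above background were 4.16% and 4.66%.

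**Figure D1:**
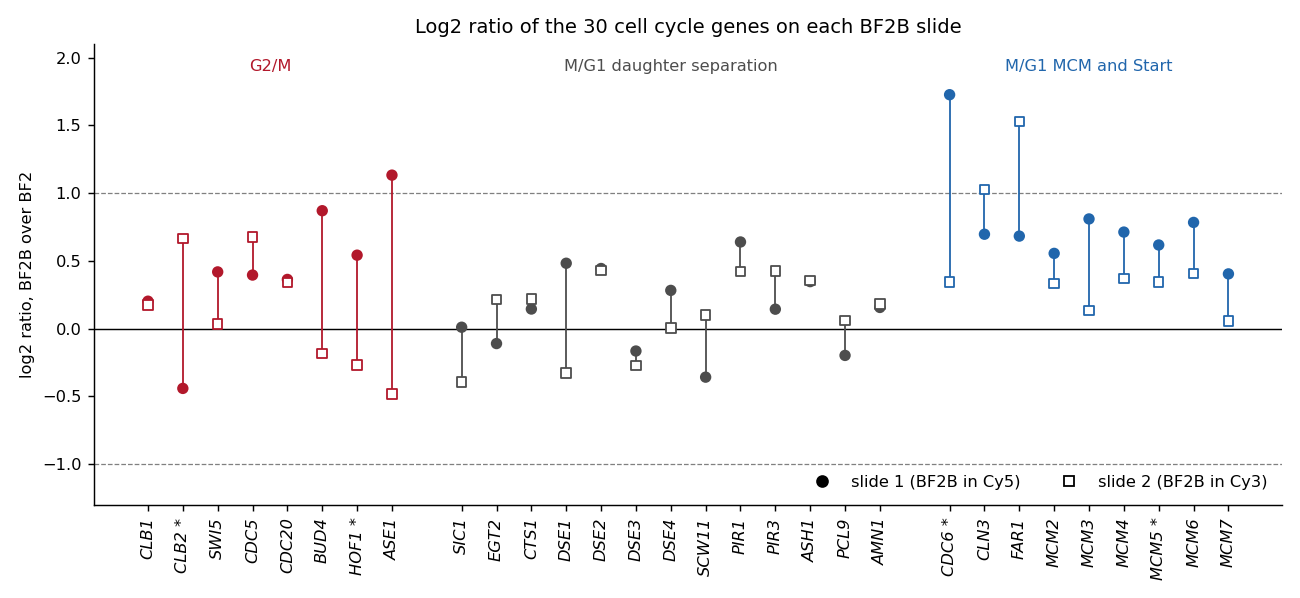
Log2 ratio of BF2B over BF2 (vertical axis) for each of the 30 genes, with filled circles for slide 1 (BF2B in Cy5), open squares for slide 2 (BF2B in Cy3), a line joining both and dashed lines at 2-fold. An asterisk marks the 4 genes not above background in at least 1 channel of both slides. All 9 licensing and Start genes lie above 0 on both slides, and 4 of 8 G2/M genes lie on opposite sides of 0.

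The licensing and Start genes were examined first. Intensities below are dye-corrected brightness units after background correction, and compare the strains within a slide only. CLN3 (YAL040C), the G1 cyclin that triggers Start, had intensities of 3551 and 4914 units in BF2B on slides 1 and 2, against 2192 and 2410.2 units in BF2. BF2B was higher on both slides, and all 4 channels were above background. The log2 ratio was 0.86 ± 0.23, or 1.82-fold, from 0.70 on slide 1 and 1.03 on slide 2. CLN3 lies on chromosome I, whose 74 genes above background had a median log2 ratio of 0.48 in BF2B over BF2, while the medians of the 14 chromosomes other than I and VI lay between -0.08 and 0.05. CLN3 ranked at place 10 from the top of those 74 genes. Less the median of its chromosome on each slide, CLN3 stood at 0.35, and the part of a shift of the whole chromosome in its value was not tested. It is the only member on chromosome I.

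FAR1 (YJL157C) encodes an inhibitor of the Cln kinases that arrests cells in G1 in response to mating pheromone. It had 864 and 1099 units in BF2B, against 538 and 381 units in BF2. BF2B was higher on both slides and in 3 of 3 spots of each. The ratio was uneven, 0.68 on slide 1 and 1.53 on slide 2, with a mean of 1.11 ± 0.60. In BF2, FAR1 was above background only on slide 2, in Cy5.

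CDC6 (YJL194W), the loader of the helicase onto origins, had 368 and 281 units in BF2B, against 111 and 221 units in BF2. Its ratio of 1.73 on slide 1 and 0.34 on slide 2 gave a mean of 1.04 ± 0.98. The SD is nearly as large as the mean, and the probe was above background only for BF2B on slide 1, so the size of this difference is uncertain.

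The 6 MCM genes encode the subunits of the hexameric helicase that unwinds origins. All 6 stood above 0 on both slides, with means of 0.23 to 0.60 and a median of 0.48. With spots of negative flag left out, only MCM4 and MCM6 kept a value, at 0.54 and 0.60. MCM6 (YGL201C) had 2353 and 2318 units in BF2B, against 1367 and 1748 units in BF2, and MCM4 (YPR019W) had 2221 and 2510.4 units in BF2B, against 1356 and 1942 units in BF2. For both genes BF2B exceeded BF2 on each slide and all 4 channels were above background. Their log2 ratios were 0.60 ± 0.27 for MCM6 and 0.54 ± 0.24 for MCM4, equal to 1.51-fold and 1.46-fold.

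The other 4 MCM probes were not above background in Cy3. MCM2 (YBL023C) had 723 and 688 units in BF2B, against 492 and 547 units in BF2, which gave a log2 ratio of 0.44 ± 0.16. MCM3 (YEL032W) had 614 and 540.4 units in BF2B, against 350.2 and 493 units in BF2, which gave a log2 ratio of 0.47 ± 0.48. MCM5 (YLR274W) had 432 and 426 units in BF2B, against 281 and 336 units in BF2, which gave a log2 ratio of 0.48 ± 0.19. On both slides BF2B was the brighter for each of these 3 genes. MCM7 (YBR202W) stood lowest of the 6 subunits, with 543 and 576 units in BF2B, against 411 and 554 units in BF2, which gave a log2 ratio of 0.23 ± 0.25. MCM2, MCM3 and MCM7 were above background in both Cy5 channels, and MCM5 in the Cy5 channel of BF2B alone. In all 6 genes the ratio was larger on slide 1, by 0.22 to 0.68, where the median over all gene probes was 0.03. None of the 6 reached 1.5-fold on both slides. The 6 genes lie on 5 chromosomes, II, V, VII, XII and XVI, and MCM2 and MCM7 share chromosome II.

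**Figure D2:**
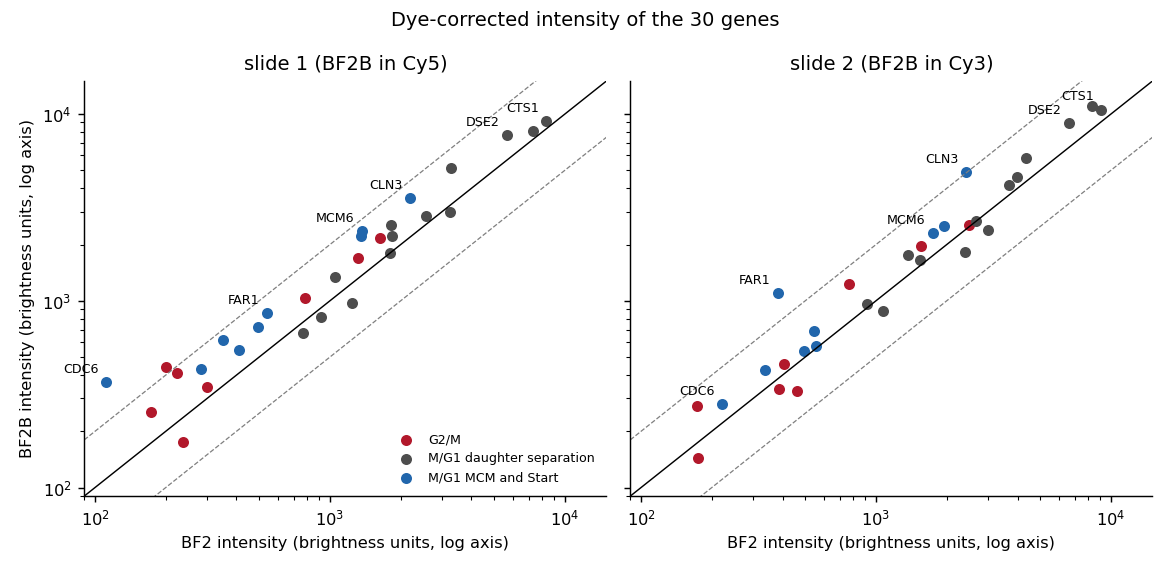
Dye-corrected intensity in BF2B (vertical) and in BF2 (horizontal), both on log axes in brightness units, for the 30 genes on slide 1 (left) and slide 2 (right). The solid line marks equal intensity and the dashed lines 2-fold. CLN3, FAR1 and MCM6 lie above the solid line on both slides, and CDC6 is at the dim end.

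The G2/M genes were measured unevenly. CDC5 (YMR001C), the polo kinase of mitosis and mitotic exit, had 1028 and 1227 units in BF2B, against 782 and 768 units in BF2. BF2B was higher on both slides and in 3 of 3 spots of each, with a log2 ratio of 0.54 ± 0.20, or 1.45-fold. CDC20 (YGL116W), the activator of the anaphase-promoting complex, had 1695 and 1967 units in BF2B, against 1318 and 1555 units in BF2. Both slides gave nearly the same ratio for CDC20, 0.36 and 0.34, and its mean was 0.35 ± 0.02. SWI5 (YDR146C), the transcription factor of M/G1 genes, had 2177 and 2538 units in BF2B, against 1629 and 2482 units in BF2. The SWI5 difference was carried by slide 1, with 0.42 there and 0.03 on slide 2.

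CLB1 (YGR108W) and CLB2 (YPR119W) encode the main mitotic cyclins. CLB1 had 346 and 456 units in BF2B, against 301 and 405 units in BF2, which gave a log2 ratio of 0.19 ± 0.02. CLB2 had 174 and 274 units in BF2B, against 237 and 173 units in BF2, so the strains changed places between the slides. CLB2 was not above background in any of the 4 channels, and CLB1 only in Cy5, so the level of the main mitotic cyclin could not be compared at this signal.

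BUD4, HOF1 and ASE1 also changed sign with the dyes. ASE1 (YOR058C), which bundles microtubules of the spindle midzone, had 439 and 329 units in BF2B, against 200.5 and 459 units in BF2. Its log2 ratios were 1.13 on slide 1 and -0.48 on slide 2, with 3 of 3 spots above 0 on slide 1 and 0 of 3 on slide 2. BUD4 (YJR092W), an anillin-like protein of the bud neck, had 408 and 339 units in BF2B, against 223 and 385 units in BF2, and log2 ratios of 0.87 and -0.18. HOF1 (YMR032W), an F-BAR protein of cytokinesis, had 253 and 145 units in BF2B, against 174 and 175 units in BF2, and was not above background in any channel. For these 3 genes the strain in Cy5 was the brighter on each slide, so their means of 0.33, 0.34 and 0.14 carry no direction that both slides share.

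The daughter separation genes were measured in nearly every channel. All 13 passed the filter on dim probes, 12 of them above background in all 4 channels and PCL9 in 3. Their means ran from -0.22 to 0.53, with 7 of 13 above 0 and 1 of 13 below 0 on both slides, against 28.3% and 27.8% of all gene probes. Chitinase and glucanase genes, whose products digest the septum, came out as follows. CTS1 (YLR286C), the endochitinase, had 9208 and 10559 units in BF2B, against 8332 and 9086 units in BF2, which gave a log2 ratio of 0.18 ± 0.05. DSE2 (YHR143W), a daughter-specific secreted protein related to glucanases, had 7678 and 8921 units in BF2B, against 5647 and 6632 units in BF2. Its log2 ratio was 0.44 ± 0.01, or 1.35-fold, and the slides differed by 0.02.

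DSE4 (YNR067C), an endoglucanase, had 2229 and 2672 units in BF2B, against 1834 and 2661 units in BF2, so slide 2 showed practically no difference. EGT2 (YNL327W), a cell wall endoglucanase and early G1 marker, had 2999.7 and 4619 units in BF2B, against 3238 and 3984 units in BF2, and the strains exchanged order between slides. SCW11 (YGL028C), a glucanase-like cell wall protein, had 968 and 1647 units in BF2B, against 1241 and 1538 units in BF2, again in opposite order. The mean log2 ratios of DSE4, EGT2 and SCW11 were 0.14, 0.05 and -0.13.

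PIR1 (YKL164C) and PIR3 (YKL163W) encode related cell wall proteins with internal repeats and are neighbours on chromosome XI, transcribed away from each other. PIR1 had 5112 and 5817 units in BF2B, against 3282 and 4347 units in BF2, which gave a log2 ratio of 0.53 ± 0.15. PIR3 had 8076 and 11092 units in BF2B, against 7314 and 8259 units in BF2, which gave a log2 ratio of 0.28 ± 0.20. BF2B was higher for both genes on both slides, but probe sequences were not used here, and signal shared between such related genes cannot be separated.

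The daughter group also holds regulators. ASH1 (YKL185W), a repressor of HO whose messenger RNA is carried into the bud, had 1340.4 and 1751 units in BF2B, against 1054 and 1369 units in BF2, which gave a log2 ratio of 0.35 ± 0.01. AMN1 (YBR158W), which blocks mitotic exit signalling in daughters, had 2845 and 4180.3 units in BF2B, against 2553 and 3685 units in BF2, which gave a log2 ratio of 0.17 ± 0.02. SIC1 (YLR079W), the inhibitor of Clb kinases, had 1807 and 1814 units in BF2B, against 1794 and 2381 units in BF2. The SIC1 ratio was 0.01 on slide 1 and -0.39 on slide 2.

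The means of the rest of the daughter group lay between -0.22 and 0.08, though the slides of DSE1 disagreed. DSE3 (YOR264W), a daughter-specific protein, was the member below 0 on both slides, with 817 and 882 units in BF2B, against 917 and 1067 units in BF2, and a log2 ratio of -0.22 ± 0.08. DSE1 (YER124C), a daughter-specific protein of the bud neck, had 2541 and 2381 units in BF2B, against 1819 and 2991 units in BF2, and log2 ratios of 0.48 and -0.33 on the slides. PCL9 (YDL179W), a cyclin of the kinase Pho85, had 671 and 957 units in BF2B, against 770.3 and 918 units in BF2, which gave a log2 ratio of -0.07 ± 0.18.

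**Figure D3:**
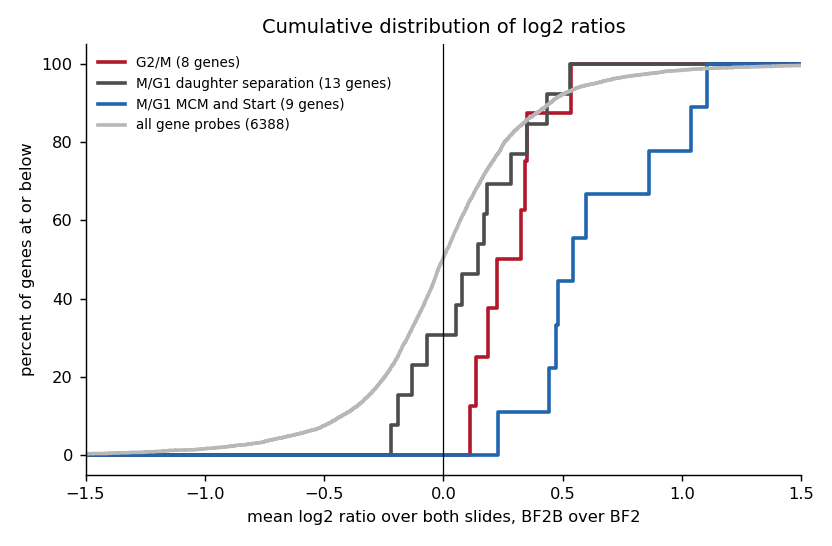
Percent of genes (vertical) at or below a mean log2 ratio of BF2B over BF2 (horizontal) for the 3 member groups and for all 6388 gene probes. The curve of the licensing and Start genes, with a median of 0.54, lies to the right of the others, and that of the daughter separation genes, with a median of 0.14, lies nearest to all probes.

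How far the slides bear each other out set the precision. Across the 30 members, which are not independent replicates, the log2 ratios of slide 1 and slide 2 correlated at a Pearson r of 0.08, where the value over all 6388 gene probes was 0.30 and over those above background 0.64. Over the 26 members above background it was 0.18. The slides of the comparison were assumed to share their RNA extracts. The members spanned a narrow range of ratios, and the median SD between slides was 0.23 for the members and 0.23 for all gene probes. A mean of 0.2 to 0.3 in a single member is therefore of the size of the spread between hybridisations.

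Regulators and further genes of the same phases were followed in 5 lists, and G1/S genes in another. Of the 25 G2/M regulators and mitotic exit genes, 0 were called, and the median log2 ratio was 0.19, with 12 above 0 and 4 below 0 on both slides. SWE1, the kinase that restrains mitosis, was the highest above background at 0.66 ± 0.45, and CDC14, the phosphatase of mitotic exit, the lowest at -0.88 ± 0.35. CDC14 lies on chromosome VI, whose 87 genes above background had a median of -0.75. MCM1, picked out after its value was seen because it acts in both waves, stood at 0.40 ± 0.05, and its partners NDD1 and FKH2, chosen in the same way, at -0.13 ± 0.07 and -0.07 ± 0.13.

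The 13 subunits of the anaphase-promoting complex, which Cdc20 activates, had a median of 0.07, with 0 called. CDC23 was highest at 0.53 ± 0.03, and APC1, at -0.42 ± 1.11, changed sign between slides. The 15 further genes of the CLB2 cluster had a median of 0.04 with 0 called, from PMP1, a proteolipid of the plasma membrane proton pump, at 0.82 ± 0.02 to IQG1, a scaffold of the actomyosin ring, at -0.27 ± 0.35.

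Among 13 further M/G1 genes, 9 of them above background, the median was 0.23. Of these, 1 gene was called lower, against 1.61% of all genes above background. This was RME1, a repressor of meiosis that also promotes CLN2 transcription, at -1.16 ± 0.15. CIS3, a cell wall protein related to PIR1 and PIR3, was the highest above background at 0.69 ± 0.28. The other 18 origin licensing and firing genes had a median of 0.05, with 4 above 0 and 2 below 0 on both slides and 0 called, where PSF1, a subunit of the GINS complex, stood at 0.33 ± 0.13 and ORC2, of the origin recognition complex, at -0.19 ± 0.19. Set beside them, the MCM genes had 6 of 6 above 0 on both slides and a median of 0.48, a difference for which no test could be made. The lists also differ in signal, since 10 of the 18 genes and 5 of the 6 MCM genes were above background.

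The 24 G1/S genes, expressed in the next wave of the cycle, had a median of 0.34. On both slides 15 were above 0 and 1 below 0, against 28.3% and 27.8% of all gene probes. Of the 16 above background 3 were called higher, against 1.37% of all genes above background. The 3 called genes were SVS1, a cell wall protein, at 1.60 ± 0.08, RNR1, of ribonucleotide reductase, at 1.15 ± 0.16, and RFA1, of the single-strand binding protein RPA, at 1.13 ± 0.04. CDC9, DNA ligase, was the lowest above background at -0.08 ± 0.30. RFA1 lies on chromosome I like CLN3, and stood at place 3 from the top there. The G1/S median of 0.34 lay between that of the licensing and Start genes, 0.54, and that of the G2/M genes, 0.28.

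**Figure D4:**
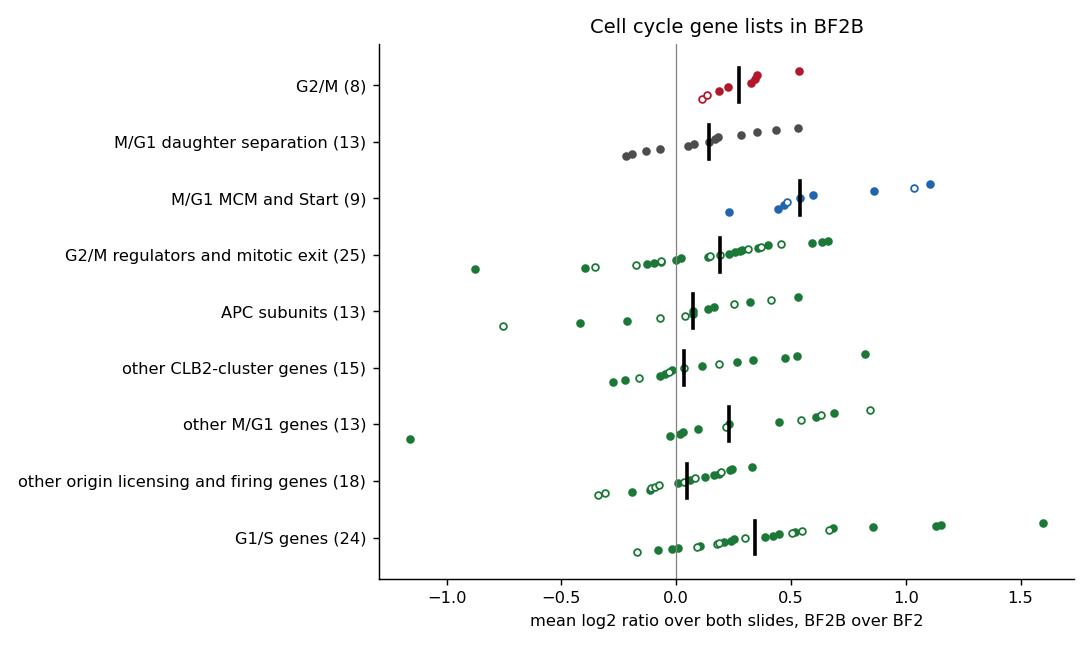
Mean log2 ratio of BF2B over BF2 (horizontal) for each gene of the 3 member groups and 6 other cell cycle lists (rows, with the number of genes). Points are genes, open where not above background in at least 1 channel of both slides, and black bars are list medians. The MCM and Start group has the rightmost median, 0.54, and the farthest points to the left are RME1 and CDC14.

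The sample labelled BF2S was measured under other conditions of signal. In its channel the blank spots had medians of 6049 and 5325 units, above 95.9% and 98.2% of the gene spots, against 1708.5 and 1767.5 units in the BF2 channel. The BDF1 probe, whose gene is deleted in both strains, stood at a log2 ratio of 1.64 ± 0.28 in BF2S over BF2. Of the 30 members, 4 were above background in BF2S on both slides (SWI5, BUD4, AMN1 and MCM6), and 9 on neither. The values below therefore describe these slides, and what part the blank signal has in them was not tested.

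In BF2S over BF2, 0 members were called higher and 9 lower, while of all 5290 genes above background 19.3% were called higher and 25.1% were called lower. On both slides 7 of 30 members were above 0 and 17 of 30 below 0, against 48.9% and 41.7% of all gene probes. The 9 comprised 7 daughter separation genes, CDC5 and CLN3. The daughter separation genes had a median log2 ratio of -2.01, the G2/M genes 0.06 and the licensing and Start genes 0.27, beside 0.14 for all gene probes. When all 4 channels had to be above background, only SWI5, BUD4, AMN1 and MCM6 were left, 0 of them called, and the daughter separation group consisted of AMN1 alone, at -0.43. A negative flag was set for 32.0% of gene spots on BF2S slide 1 and for 67.3% on slide 2. With these left out, 8 members had a value, and 5 of these were called lower (EGT2, CTS1, DSE2, DSE4 and PIR3). The share of all gene probes called lower under this setting is not given here, so the 5 of 8 have no matching background.

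CTS1 had 1008 and 926 units in BF2S, against 11049 and 9213 units in BF2. It was not above background in BF2S on either slide and was 8.09-fold lower there against a floor set for dim signals. EGT2 had 408 and 806 units in BF2S, against 5203 and 4069.7 units in BF2, and was 4.22-fold lower against that floor. Against the same floor DSE4 was 3.58-fold lower, CLN3 1.98-fold, PCL9 1.40-fold and CDC5 1.13-fold. These values rest on the loess correction of slides with bright blanks. The floor is not each gene's own background limit, so they are not strict lower limits.

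The other called genes of the daughter group were above background in BF2S on slide 1 only. PIR3 had 1081 and 1553 units in BF2S, against 13192 and 11547 units in BF2, which gave a log2 ratio of -3.25 ± 0.51. DSE2 had 1857 and 1509 units in BF2S, against 7998 and 6013 units in BF2, which gave a log2 ratio of -2.05 ± 0.08. DSE1 had 893 and 965 units in BF2S, against 4023 and 3456 units in BF2, which gave a log2 ratio of -2.01 ± 0.24. PIR1, the neighbour of PIR3, was not called, at -1.20 ± 0.39.

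Members not called in BF2S lay on both sides of 0. CLB2, FAR1, CDC6 and BUD4 had mean log2 ratios of 1.32, 1.07, 1.05 and 0.98, and SWI5, CDC20 and SIC1 of -0.86, -0.80 and -0.70. The MCM genes lay on both sides of 0, with means of -0.53 for MCM6 and -0.48 for MCM4 and of 0.05 to 0.59 for the other subunits. Of the first 4, only BUD4 was above background in all 4 channels. CLB2 and FAR1 were each below it in BF2S on slide 2 and in BF2 on slide 1. CDC6 was above it only in BF2S on slide 1 and did not pass the filter, so it could not be called. The sizes of the ratios of CLB2, FAR1 and CDC6 are therefore uncertain. Each strain was hybridised with BF2 on its own slides, the labels do not say whether both used the same BF2 extract, and the difference between the strains was not tested.

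**Figure D5:**
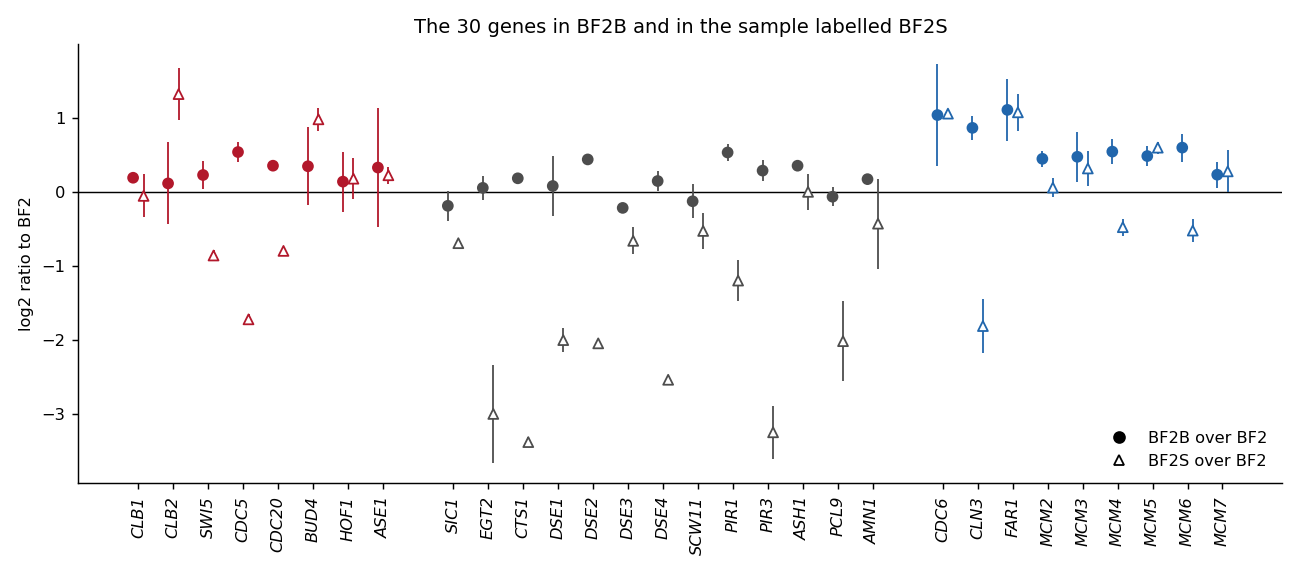
Log2 ratio to BF2 (vertical) of the 30 genes in BF2B (filled circles) and in the sample labelled BF2S (open triangles), with points for the mean of both slides and bars from the lower to the higher slide. Daughter separation genes lie near 0 in BF2B and reach -3.38 for CTS1 in BF2S, where 1 of the 13 genes was above background in the BF2S channel of slide 2.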

How the data were processed

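Messenger RNA of 3 yeast strains was compared on 4 slides. Per the file headers, the deposited scanner files give spot and local background intensity in a 635 nm channel (Cy5) and a 532 nm channel (Cy3). Per the labels' protocols, RNA was amplified linearly and labelled as cDNA with Klenow enzyme. Neither scanner nor extraction software is given in the sources used here. The deposited value table holds log2 ratios of strain over BF2, a direction checked against the scanner values. It is not centred, with column medians of 0.20, -0.29, 0.23 and -0.80.

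Spot medians were background-corrected by normexp with an offset of 50 and corrected by loess on gene spots with limma 3.58.1 in R 4.3.3. Each probe's value is the mean of its 3 spots, with the sign turned to strain over BF2. A channel counted as above background if the local background mean plus 2 SD was exceeded by 2 or more of the 3 spots. Fold values against a floor compare the brighter channel with the higher of 2 signals. These are the gene's dim signal and the lowest signal of any probe above background in that channel. Both were taken after loess and quantile normalization of the mean intensity, without a test. Further steps ran in Python 3.11.15 (pandas 2.3.3, numpy 2.4.6; figures with matplotlib 3.10.9). The normalization and the 2-fold rule were tested on simulated slides, in which only brighter probes were changed, by more than most member ratios in BF2B. That test does not bear on small ratios, dim members or slides with bright blanks.

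Of 6388 gene probes, 5849 were matched to the RefSeq gene table by systematic name, the 30 members among them, and 539 were not. All members are named. Of the other lists, called genes and the highest and lowest gene above background are named, and exceptions are marked. Members and lists were chosen with earlier results of these data known. A planned count of promoter motifs is not analysed here. A further gene list is not reported here. Alternatives were background, offset, centring, scaling, spot summary, flags, filters, thresholds, single slides and the deposited table. Ratios less their chromosome's median were added after the data were seen.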

Additional observations from a re-analysis of the deposited data

Results flagged for a closer look

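In 11 members above background in both comparisons, the log2 ratio to BF2 was on one side of 0 on both BF2B slides and on the other side on both BF2S slides. All 11 were above 0 in BF2B and below 0 in BF2S, out of 25 members above background in both comparisons, while 18.4% of the 4314 gene probes above background in both had that pattern and 8.79% the opposite one. The log2 ratio in BF2B minus that in BF2S was 3.56 for CTS1, 3.54 for PIR3, 2.69 for DSE4, 2.68 for CLN3, 2.49 for DSE2, 2.26 for CDC5, 1.73 for PIR1, 1.15 for CDC20, 1.12 for MCM6, 1.09 for SWI5 and 1.02 for MCM4. These differences between the strains were not tested, since each strain has 1 biological replicate. Chromosome medians also differed in BF2S. MCM4, at -0.48 there, lies on chromosome XVI, whose median was -0.55. Less the chromosome medians, the difference was 0.47 for MCM4 and 1.57 for CDC5. For the others of the 11 it then lay between 1.06 for SWI5 and 3.59 for PIR3. The part of the chromosome in the pattern of MCM4 was not tested. Only SWI5 and MCM6 of the 11 were above background in BF2S on both slides. PIR3, DSE2, PIR1, CDC20 and MCM4 were so on slide 1 alone, and CTS1, DSE4, CLN3 and CDC5 on neither, so the sizes and the order of these 9 differences are not measured. Blank spots in the BF2S channel had medians of 6049 and 5325 units.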

How the results depend on the processing

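No paired analysis was possible because the slides of each comparison are a dye reversal and were taken as 1 replicate. In BF2B the medians of the 3 member groups and of all members stayed above 0 under every setting that gave a value, and 0 members were called lower. On single slides the medians were 0.10 to 0.41 for G2/M, 0.14 to 0.18 for daughter separation, 0.35 to 0.70 for licensing and Start and 0.22 to 0.41 for all members. The daughter separation median of 0.14 was 0.11 without background subtraction and 0.061 in the deposited table. The G2/M minus M/G1 difference of -0.04 was 0.17 with negative flags left out, 0.078 for members above background in 1 channel, 0.17 for those in both, and -0.17 to -0.017 on single slides. With flags left out or both channels required, the G2/M median rested on SWI5, CDC5 and CDC20. That of licensing and Start then rested on CLN3, MCM4 and MCM6. FAR1 was the 1 gene called higher in the deposited table and by the mean ratio alone, FAR1 and CLN3 were the 2 at 1.5-fold and on slide 2, and ASE1 the 1 on slide 1. Members above 0 on both slides numbered 13 in the deposited table, where 28 members had a mean, 13 with negative flags left out (of 19), 13 above background in both channels (of 18), and 24 to 25 on single slides. Those below 0 numbered 3 without background subtraction, 2 by median centring, 3 in the deposited table, 2 less the chromosome median and 5 to 6 on single slides.

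In BF2S the G2/M median of 0.06 was -0.86 with negative flags left out, -0.29 above background in 1 channel and -0.22 to 0.17 on single slides. The daughter separation median of -2.01 was -1.27 without background subtraction, -2.74 in the deposited table, -0.43 above background in both channels (AMN1 alone) and -1.84 to -1.48 on single slides. The licensing and Start median of 0.27 was -0.58 in the deposited table, -0.53 above background in both channels (MCM6 alone) and 0.07 to 0.55 on single slides. The median of all members, -0.53, was -0.98 in the deposited table, -2.01 with negative flags left out, -0.66 above background in 1 channel and -0.67 to -0.54 on single slides. The G2/M minus M/G1 difference of 0.66 was 1.15 in the deposited table, 1.23 with negative flags left out and 0.45 to 0.94 on single slides. CLB2 was the 1 gene called higher with an offset of 10, by median centring, by scaling and less the chromosome median, and CDC6 the 1 without the filter on dim probes. CLB2 and FAR1 were the 2 by the mean ratio alone, CLB2, BUD4 and FAR1 the 3 at 1.5-fold, and single slides gave 0 to 3. Called lower were 5 with negative flags left out (of 8 with a value) and 0 above background in both channels (of 4), for which no share of all gene probes is given. Members above 0 on both slides numbered 2 in the deposited table (of 24) and 0 with negative flags left out (of 8). They numbered 1 above background in both channels (of 4) and 9 to 11 on single slides. Those below 0 numbered 7 with negative flags left out (of 8), 2 above background in both channels (of 4) and 19 to 21 on single slides. The deposited columns are not centred, with medians of 0.20 and -0.29 for BF2B and 0.23 and -0.80 for BF2S. Their medians and counts about 0 are therefore not like those of centred ratios. Leaving out flags and filtering leave fewer members. Less the chromosome median, 16 of 30 members moved in BF2S and 28 kept their sign. The causes of the shifts were otherwise not tested. Signal limits the dim probes: 4 members in BF2B and 3 in BF2S were not above background.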

Other observations

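The 2 chromosomes that stood apart in BF2B were found after the values were seen. Genes above background on chromosome I had a median log2 ratio of 0.50 on slide 1 and 0.53 on slide 2, with 3 called higher and 0 lower of 74. Genes above background on chromosome VI had -0.69 and -0.78, with 1 called higher and 16 lower of 87, and 82.8% of them lay below 0 on both slides. Among the cell cycle lists, and picked for their position, chromosome I holds CLN3, RFA1, CDC15 (0.63 ± 0.36), the mitotic kinase gene KIN3 (0.53 ± 0.26) and LTE1 (0.37 ± 0.03, not above background), and chromosome VI holds CDC14 and CDC26 (-0.75 ± 0.52, not above background). No member lies on chromosome VI. In BF2S the medians of the same chromosomes were -0.05 and -0.01, beside values from -0.69 on chromosome XIII to 1.02 on chromosome VIII.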
